A study of Mus musculus with 20 samples.

Results

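The genes described here are the zinc finger genes that lie outside the large chromosome 7 clusters, on 7 mouse chromosomes. A gene was a member if it was protein-coding in the GENCODE M21 basic annotation of GRCm38 (mm10), lay on chromosome 2, 8, 9, 10, 11, 13 or 17, and had a symbol made of Zfp followed by digits. This gave 161 members of 21938 protein-coding genes, namely 25 on chromosome 2, 24 on chromosome 8, 18 on chromosome 9, 5 on chromosome 10, 17 on chromosome 11, 31 on chromosome 13 and 41 on chromosome 17. ChIP-Seq had been performed on chromatin from snap-frozen livers of wild-type male C57BL/6 mice, either young (3 months) or old (21 months). H3K14ac, the acetylated lysine 14 of histone H3, and the histone methyltransferase Setdb1 were each profiled in 3 livers per age, and the corepressor Kap1 (Trim28) in 2 livers per age, by the labels. The study's text is not uniform on how many of the H3K14ac and Setdb1 livers were merged. The livers of an age were merged by the authors into 1 peak list per mark, so there are 6 lists with 19350 (H3K14ac young), 20463 (H3K14ac old), 50583 (Setdb1 young), 13877 (Setdb1 old), 48915 (Kap1 young) and 22141 (Kap1 old) peaks. The lists hold positions without heights or scores, the depth behind them is unknown, and with 1 list per age no spread between livers can be given. In bulk liver, fewer cells with a mark and less of the mark per cell cannot be told apart. Differences below were therefore not tested, and all intervals are 95% intervals (Wilson for shares, exact Poisson for counts, and for ratios the Wilson interval of the old share of both lists' peaks, converted to a ratio) that cover counting error only.

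Most mouse Zfp genes encode proteins with an array of C2H2 zinc fingers, and many of these carry a KRAB domain at the amino terminus. The fingers read DNA, frequently in transposable elements, and the KRAB domain binds Kap1, which in turn brings Setdb1 to methylate lysine 9 of histone H3. The family is known to be arranged in tandem clusters that grew by gene duplication, and in several cell types the finger-coding last exons of its own members carry Kap1 and H3K9me3.

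The symbol rule was set beside the encoded proteins. When the longest coding transcript of each gene was translated, 144 of the 161 members held at least 3 C2H2 fingers, with a median of 11 and a maximum of 27 fingers, and 106 held a KRAB core. Among all 21851 proteins that could be translated, 638 held at least 3 fingers and 293 the KRAB core. The array lay in 1 exon in 128 of the 144 members with an array, and it reached the last exon in 134. The 17 members with fewer than 3 fingers include Zfp330, with 0 fingers, and Zfp598, with 1 finger, which shows that a Zfp symbol does not always stand for a finger array. Members were 19.4 kb long in the median, and all protein-coding genes 17.4 kb.

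Sequences from inside the finger arrays are shown first, since they show what a peak on the coding part of such a gene can cover. All 6 are examples that hold the motif described next, which not every peak on an array does. The linker between neighbouring fingers has a conserved run of residues that starts with threonine and glycine, and its codons give the 14-letter motif ACNGGNGANAANCC, searched on both strands. Capitals below mark this motif, and each sequence reads 5′ to 3′ on the strand of its gene in GRCm38.
Zfp120, Kap1 young, chr2:150117373-150117522, minus strand: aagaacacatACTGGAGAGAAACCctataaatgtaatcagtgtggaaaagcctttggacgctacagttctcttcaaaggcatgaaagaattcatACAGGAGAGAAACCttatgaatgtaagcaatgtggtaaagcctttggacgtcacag
Zfp866, Kap1 young, chr8:69766098-69766247, minus strand: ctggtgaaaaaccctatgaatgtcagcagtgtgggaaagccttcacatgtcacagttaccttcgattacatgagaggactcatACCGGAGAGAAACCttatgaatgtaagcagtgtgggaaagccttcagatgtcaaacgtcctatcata
Zfp612, Kap1 young, chr8:110089841-110089990, plus strand: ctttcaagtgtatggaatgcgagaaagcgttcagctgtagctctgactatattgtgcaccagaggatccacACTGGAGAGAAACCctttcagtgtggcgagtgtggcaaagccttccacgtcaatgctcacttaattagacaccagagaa
Zfp709, Kap1 old, chr8:71889997-71890146, plus strand: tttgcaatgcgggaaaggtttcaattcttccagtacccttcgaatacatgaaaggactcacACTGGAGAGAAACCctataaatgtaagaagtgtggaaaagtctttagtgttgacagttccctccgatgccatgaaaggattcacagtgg
Zfp457, Setdb1 young, chr13:67293824-67294023, minus strand: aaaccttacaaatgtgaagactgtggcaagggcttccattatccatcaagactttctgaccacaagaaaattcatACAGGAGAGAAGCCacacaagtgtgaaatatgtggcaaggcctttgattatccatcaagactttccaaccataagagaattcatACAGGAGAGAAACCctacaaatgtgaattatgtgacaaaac
Zfp949, Setdb1 young, chr9:88569240-88569439, plus strand: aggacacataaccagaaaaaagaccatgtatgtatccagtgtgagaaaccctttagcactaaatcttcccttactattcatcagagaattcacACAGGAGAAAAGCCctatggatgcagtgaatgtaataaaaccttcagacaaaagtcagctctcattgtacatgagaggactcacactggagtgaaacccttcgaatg
All 6 peaks lay on the last exon and on the finger array. The motif stood 2 times in the Zfp120 and Zfp457 peaks and 1 time in the other 4. It was found in 4 of 153 Kap1 young peaks at members (2.61%, against 0.131% of the whole list), in 2 of 66 Kap1 old peaks (3.03% against 0.19%) and in 4 of 105 Setdb1 young peaks (3.81% against 0.0613%). It was in 1 of 118 H3K14ac young peaks (0.847% against 0.233%). Of the H3K14ac old peaks 0 of 103 held it (whole list 0.186%), and of the Setdb1 old peaks 0 of 36 (whole list 0.0649%). Not every peak on a last-exon array held the motif. It was missing from the Kap1 young peaks on the arrays of Zfp13, Zfp51, Zfp90 and Zfp943. The Setdb1 young peaks on the arrays of Zfp770 and Zfp882 and the Setdb1 old peak on that of Zfp358 also lacked it. Where a peak on a finger exon holds the motif, the coding sequence supplies it, so the match describes where the peak lies.

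The first question was how many members carried a peak in the gene body or within 5 kb of it. H3K14ac was found at 76 members in young livers (47.2%, interval 39.6 to 54.9%) and at 70 in old livers (43.5%, 36.1 to 51.2%), while 32.5% and 40.4% of all protein-coding genes had such a peak. The young interval lay above the share of all genes, and the old interval included it. Setdb1 was found at 65 members in young (40.4%, all genes 43.7%) and 28 in old livers (17.4%, all genes 17.8%), both close to the background. Kap1 was found at 67 members in young livers (41.6%, 34.3 to 49.3%; all genes 34.4%) and at 35 in old livers (21.7%, 16.1 to 28.7%; all genes 19.3%). In old livers the share of members with a Kap1 peak was thus near that of genes in general. The young interval only just included the share of all genes. It lay above the 32.0% of the other protein-coding genes of the 7 chromosomes.

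Peak density differed more than the share of genes, since some members had many peaks. The members' windows, counted once where they overlap, spanned 5.65 Mb and held 118 H3K14ac young, 103 H3K14ac old, 105 Setdb1 young, 36 Setdb1 old, 153 Kap1 young and 66 Kap1 old peaks. Kap1 young peaks stood at 27.1 per Mb (23.0 to 31.7), against 16.4 per Mb for all protein-coding genes, and Kap1 old peaks at 11.7 (9.04 to 14.9) against 7.32 per Mb. H3K14ac peaks stood at 20.9 per Mb (17.3 to 25.0) in young and 18.2 per Mb (14.9 to 22.1) in old livers, against 9.43 and 11.4 per Mb. Setdb1 densities were 18.6 and 6.37 per Mb at members and 18.9 and 4.95 per Mb at all genes, with intervals that include the values of all genes. The Zfp genes of chromosome 7 had more Kap1 peaks per Mb than the members, at 45.3 in young (37.3 to 54.6) and 22.7 in old livers (17.1 to 29.4), and more H3K14ac peaks, at 34.0 and 32.4 per Mb. The 115 Zfp genes of the remaining chromosomes had 45.2 and 32.5 Kap1 peaks per Mb. Single genes weighed on these values, since 1 gene of chromosome 7 held 31 of 112 young and 21 of 56 old peaks, and 1 gene of the remaining chromosomes held 44 of 278 young peaks. Without the gene with the most peaks of each list, chromosome 7 had 34.0 young (27.0 to 42.3) and 14.7 old peaks per Mb (10.2 to 20.4), the remaining chromosomes 38.7 and 28.2, and the members 24.8 (20.8 to 29.2) and 10.5 (8.0 to 13.6). The intervals of chromosome 7 and the members then overlap at both ages. Those of the remaining chromosomes (33.9 to 44.0 in young, 24.1 to 32.7 in old livers) still lie above those of the members.

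**Figure D1:**
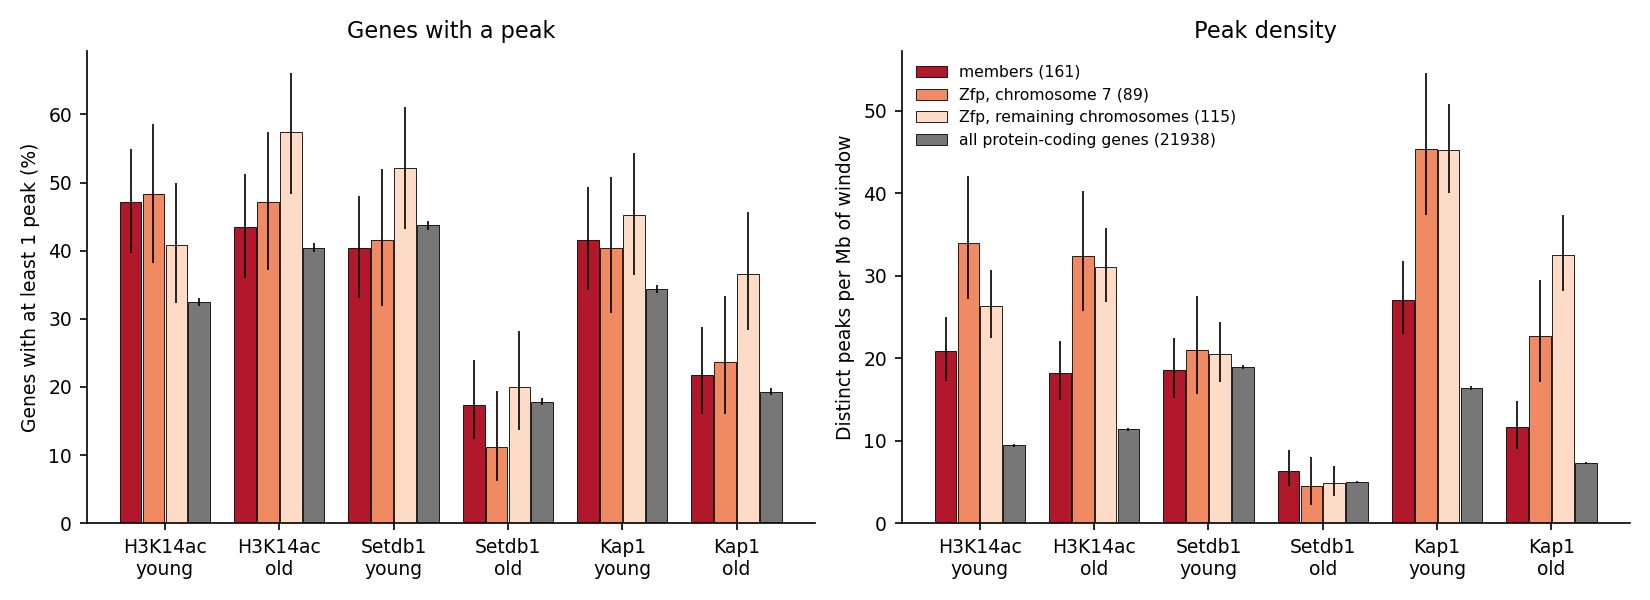
Share of genes with at least 1 peak in the gene body plus 5 kb each side (left, percent, Wilson intervals) and distinct peaks per Mb of these windows (right, exact Poisson intervals) for the members, other Zfp genes and all protein-coding genes in each list. The members stand above all genes in H3K14ac and Kap1 density and level with them in Setdb1, and below the other Zfp genes in Kap1 density, part of which lies in single genes.

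The peaks were unevenly spread over the members. In every list the median member had 0 peaks. Of 161 gene and peak pairs of the Kap1 young list, 35 (21.7%) fell to the 3 members with the most, and in the Kap1 old list 21 of 70 pairs (30%) did. H3K14ac was more even, with 10.5% of young and 10.2% of old pairs at the first 3 members. No list had a peak at 27 members (16.8%, all genes 20.7%), of which 8 lie on chromosome 2. Zfp493 on chromosome 13 and Zfp229 on chromosome 17, named here after their values were seen, were the members with a peak in all 6 lists (2 of 161, 1.24%, all genes 2.22%). The windows of 35 members overlap that of another member, and between 0 (Setdb1 old) and 8 (Kap1 young) peaks per list were shared in this way by neighbours.

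**Figure D2:**
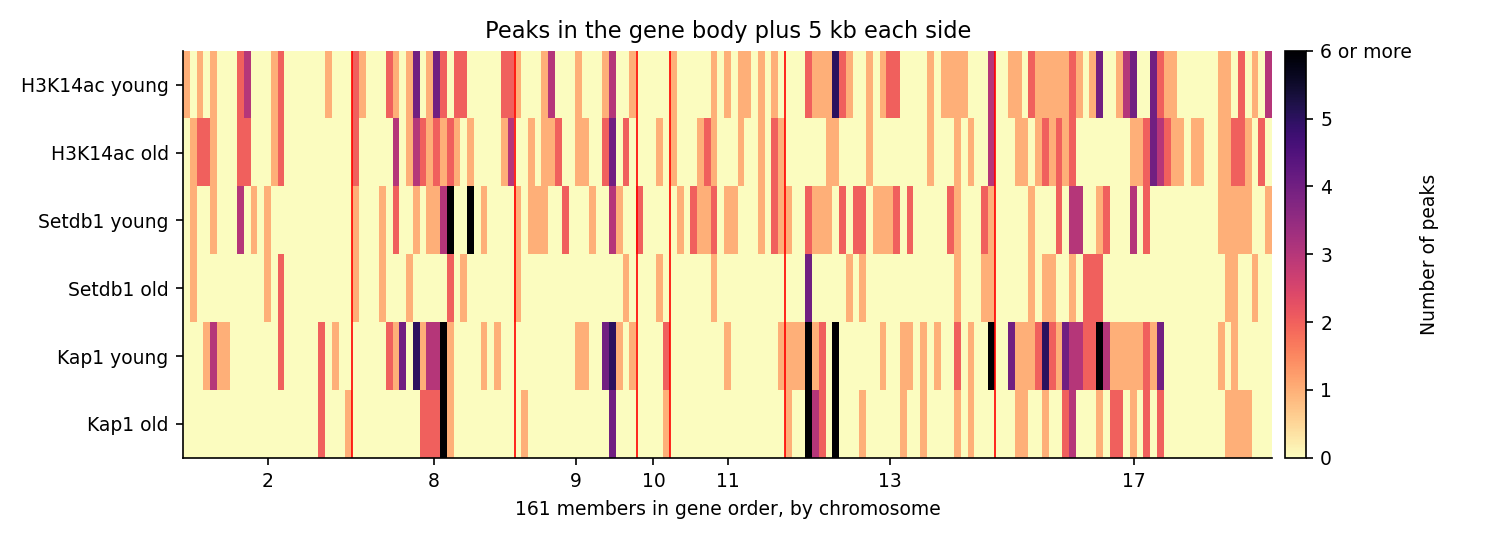
Number of peaks in the gene body plus 5 kb each side at each of the 161 members (columns, in gene order, red lines between chromosomes) in the 6 lists (rows), with 6 or more drawn in 1 colour. Kap1 young peaks form a run over neighbouring members of chromosome 17 from Zfp160 to Zfp13, and a stretch of chromosome 2 is empty in every list.

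H3K14ac sat at the start sites of the members. The start site was taken as 1 kb to each side of the transcript start, then the last exon, with the remaining gene body as the middle, and a peak was placed by its midpoint. Start sites are 7.35% of the members' gene body length, yet they held 55 of 102 young H3K14ac gene body pairs (53.9%, 44.3 to 63.3%) and 67 of 90 old pairs (74.4%, 64.6 to 82.3%). Among all protein-coding genes start sites are 4.01% of that length, and they held 38.7% of young and 47.4% of old pairs. The higher shares at members thus went with start sites that make up more of the gene. Per Mb of start site the members had 171 young (129 to 222) and 208 old (161 to 264) pairs, against 96.4 and 147 pairs at all genes. The Zfp genes of chromosome 7 had 208 (146 to 286) and 180 (123 to 254) such pairs per Mb. Those of the remaining chromosomes had 148 (102 to 206) and 261 (199 to 336). The intervals of both groups overlap those of the members. In the middle of the members 42 pairs were found in young and 21 in old livers, or 11.7 (8.4 to 15.8) and 5.83 (3.61 to 8.91) per Mb. All genes had 6.26 and 6.68 middle pairs per Mb, so the young middle density of the members was above that of all genes, and the old density was close to it. The last exon held 5 young and 2 old H3K14ac pairs.

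A start site peak of H3K14ac was found at 45 members in young livers (28%, all genes 16.4%) and at 54 members in old livers (33.5%, all genes 24.2%). At 26 members it was present at both ages, at 19 in young livers and not in old ones, and at 28 in old livers and not in young ones. The members with start site H3K14ac at both ages can be set beside their promoter sequences, of which RefSeq (GRCm38.p6) gave 172 for 141 of the 161 members, 250 bases before to 50 after a transcript start. The 29 promoters of 25 such members had a median of 15 CpG dinucleotides and 57% GC, and the 90 promoters of 76 members with no H3K14ac at the start site had 9.5 CpG and 51.8% GC. The medians over all 32851 promoters were 7 CpG and 52.7% GC. Motifs were searched on both strands by their letters, and they may overlap each other. The GC box GGGCGG, which Sp1 family factors bind, stood in 62.1% of promoters with H3K14ac at both ages, 33.3% of those without it and 35.7% of all promoters. CCATNTT, the core of the Yy1 motif, stood in 34.5%, 20% and 16.1%. CCGGAAG, a core of ETS factor sites, stood in 20.7%, 24.4% and 8.86%, and the cyclic AMP response element TGACGTCA in 10.3%, 4.44% and 1.79%. The number of CpG dinucleotides moves with H3K14ac here, and its part in the motif shares was not tested.

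Promoters of 4 members with H3K14ac at the start site at both ages are shown, because they have some of the highest H3K14ac counts or the most peaks of their chromosome. Capitals mark any of the 4 motifs on either strand.
Zfp617, chr8:71922575-71922874, plus strand: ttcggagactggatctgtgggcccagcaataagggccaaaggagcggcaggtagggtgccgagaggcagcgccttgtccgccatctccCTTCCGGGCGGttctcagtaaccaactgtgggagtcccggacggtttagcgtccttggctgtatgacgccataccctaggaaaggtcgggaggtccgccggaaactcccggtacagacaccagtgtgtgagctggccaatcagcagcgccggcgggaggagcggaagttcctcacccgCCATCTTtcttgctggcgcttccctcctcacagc
Zfp39, chr11:58904176-58904475, minus strand: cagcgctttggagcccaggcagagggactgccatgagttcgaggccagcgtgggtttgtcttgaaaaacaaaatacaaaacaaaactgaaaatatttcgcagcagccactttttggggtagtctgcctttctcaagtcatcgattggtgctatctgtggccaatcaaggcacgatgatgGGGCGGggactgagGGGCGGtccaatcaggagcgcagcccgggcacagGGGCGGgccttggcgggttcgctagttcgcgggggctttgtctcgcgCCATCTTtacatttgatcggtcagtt
Zfp213, chr17:23564177-23564476, minus strand: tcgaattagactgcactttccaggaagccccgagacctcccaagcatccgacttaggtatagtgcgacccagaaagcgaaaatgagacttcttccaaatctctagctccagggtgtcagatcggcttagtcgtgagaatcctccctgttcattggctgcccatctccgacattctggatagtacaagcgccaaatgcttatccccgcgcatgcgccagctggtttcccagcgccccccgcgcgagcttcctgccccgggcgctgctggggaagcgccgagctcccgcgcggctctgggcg
Zfp949, chr9:88547770-88548069, plus strand: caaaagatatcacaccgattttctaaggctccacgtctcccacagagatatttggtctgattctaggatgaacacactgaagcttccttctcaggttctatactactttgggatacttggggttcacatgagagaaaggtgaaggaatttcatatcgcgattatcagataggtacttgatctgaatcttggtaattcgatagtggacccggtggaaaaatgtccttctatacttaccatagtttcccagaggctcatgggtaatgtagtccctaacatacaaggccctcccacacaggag
The Zfp617 promoter holds 21 CpG, an ETS core that overlaps a GC box, and a Yy1 core. The Zfp39 promoter holds 18 CpG, GC boxes and a Yy1 core. None of the 4 motifs is in the Zfp213 promoter, with 24 CpG, or in the Zfp949 promoter, with 6 CpG, although H3K14ac peaks overlap both at both ages. A missing match says that these letters are not in the window.

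Setdb1 and Kap1 peaks lay mostly outside the start sites, at members as in all genes. In young livers Setdb1 had 4 start site pairs, 69 in the middle and 8 in the last exon, and in old livers 0, 27 and 2. Start sites thus held 4.94% of the young Setdb1 pairs (1.94 to 12.02%), or 12.4 per Mb (3.38 to 31.8) against 13.1 per Mb in all genes. Kap1 had 2, 97 and 13 in young and 1, 46 and 6 in old livers. At start sites Kap1 young pairs stood at 6.21 per Mb (0.752 to 22.4) and at 22.3 per Mb in all genes, and the interval just includes that value. The middle held 26.9 Kap1 young pairs per Mb (21.8 to 32.8) against 15.1 in all genes, and 12.8 Kap1 old pairs per Mb (9.34 to 17.02) against 6.48. The flanks within 5 kb had 30.3 Kap1 young pairs per Mb upstream (18.5 to 46.7) and 33.5 downstream (22.1 to 48.8). All genes had 20.7 and 23.3 there, inside these intervals. In old livers the members' flanks had 10.6 and 12.4 Kap1 pairs per Mb, against 9.76 and 10.7 in all genes.

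The last exon, where most finger arrays lie, held 11.6% of the Kap1 young gene body pairs (6.91 to 18.9%) and 11.3% of the Kap1 old pairs (5.29 to 22.6%). It makes up 10.5% of the members' gene body length, and 3.15% in all genes, where it held 5.57% and 6.33% of the pairs. Per Mb of last exon, the members had 28.3 Kap1 young pairs (15.1 to 48.4) and all genes 28.0, and in old livers 13.1 (4.8 to 28.5) and 13.7. Kap1 peaks on last exons were found at 13 members in young (8.07%, all genes 3.87%) and at 5 members in old livers (3.11%, all genes 1.94%). The higher share of genes thus went with last exons that make up more of the gene, and the interval of the density included the value of all genes. For Setdb1 the last exon held 9.88% of young pairs (5.09 to 18.3%) and 6.9% of old pairs (1.91 to 22%), against 3.44% and 3.88% in all genes. Per Mb of last exon this was 17.4 young (7.52 to 34.3) and 4.36 old pairs (0.528 to 15.7), against 20.6 and 6.04. For H3K14ac it held 4.9% of young (2.11 to 11%) and 2.22% of old pairs (0.612 to 7.74%), against 3.15% and 2.68% in all genes. Chromosome 7 Zfp genes had 61.8 Kap1 young pairs per Mb of last exon (34.6 to 102) and 24.7 in old livers (9.08 to 53.8), with intervals that overlap those of the members.

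**Figure D3:**
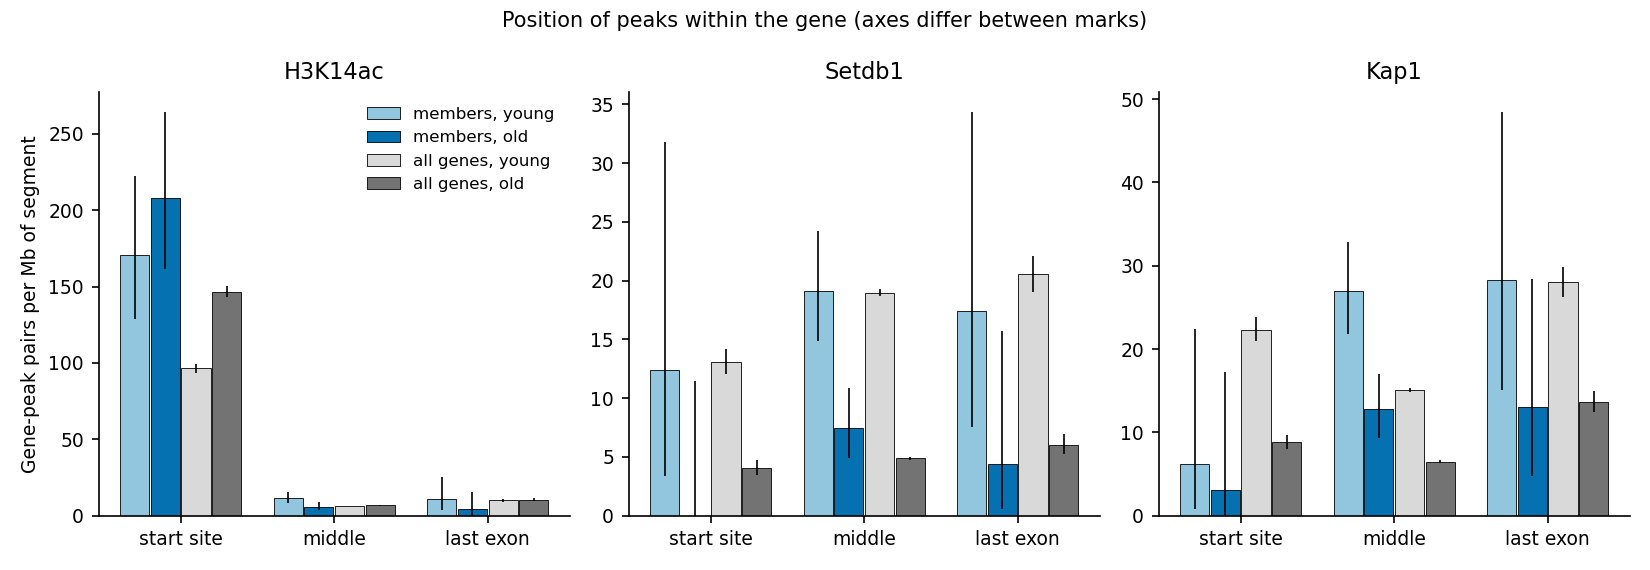
Gene and peak pairs per Mb of start site (1 kb to each side), middle and last exon, with exact Poisson intervals, for the members (blue) and all protein-coding genes (grey) at both ages, each mark on its own axis. H3K14ac stands high at start sites, with 171 young and 208 old pairs per Mb at members, while Setdb1 and Kap1 at members reach at most 19.1 and 28.3 per Mb in any of these segments, with wide intervals at start sites and last exons.

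On the finger array itself peaks were few. Kap1 young peaks touched the array of 10 of 144 members (6.94%), and of 7 of the 128 with an array in 1 exon, namely Zfp120, Zfp13, Zfp51, Zfp612, Zfp866, Zfp90 and Zfp943. Kap1 old peaks touched the 1-exon array of Zfp709, named with the others after their values were seen. Setdb1 young peaks touched 11 arrays (7.64%), of which 6 lie in 1 exon, and Setdb1 old peaks 4 arrays, of which 1 (Zfp358) does. The array of Zfp423, which encodes 27 fingers and is a regulator of preadipocyte commitment, is interrupted by long introns, and 9 of its 11 Setdb1 young peaks lie inside that span. For H3K14ac the counts were 2 arrays in young (Zfp369 and Zfp677) and 0 in old livers. Over all 638 genes with an array, 10.2% had a Kap1 young and 9.4% a Setdb1 young peak on it. For Kap1 old the share was 5.96% of all arrays and 1.39% of the members' arrays, for Setdb1 old 3.61% and 2.78%, for H3K14ac young 5.64% and 1.39%, and for H3K14ac old 5.33% and 0%. These shares are not per length. Introns included, all 638 arrays spanned 4.58 Mb and the 144 of the members 0.533 Mb. In young livers they held 91 and 11 Kap1, 121 and 22 Setdb1, and 57 and 2 H3K14ac pairs. In old livers the counts were 41 and 2, 25 and 4, and 51 and 0.

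The 106 members with the KRAB core and the 55 members without it differed most in Kap1 density. With the core, 52 members had a Kap1 young peak (49.1%, 39.7 to 58.4%) and 29 a Kap1 old peak (27.4%, 19.8 to 36.5%). Without it the counts were 15 (27.3%, 17.3 to 40.2%) and 6 (10.9%, 5.1 to 21.8%). The intervals of these shares overlapped at both ages. Kap1 density was 33.4 per Mb (27.4 to 40.2) in young and 15.9 (11.9 to 20.8) in old livers with the core. Without it the densities were 17.98 (12.96 to 24.3) and 5.57 (2.96 to 9.52). Of the Kap1 peaks at members without the core, Zfp369 alone held 14 of 42 young and 7 of 13 old ones. The density intervals with and without the core did not overlap at either age. Setdb1 did not separate in this way, with 17.7 (13.5 to 22.9) and 20.1 (14.8 to 26.8) young peaks per Mb with and without the core, and 7.51 (4.86 to 11.1) and 4.71 (2.35 to 8.43) old ones. Its ratios of old to young were 0.424 (0.267 to 0.674) and 0.234 (0.123 to 0.446), with overlapping intervals. In young livers 47.2% of members with the core and 47.3% without it had an H3K14ac peak (all genes 32.5%). In old livers the shares were 36.8% (28.2 to 46.3%) and 56.4% (43.3 to 68.6%; all genes 40.4%). With the core 76 young and 51 old H3K14ac peaks were counted, a ratio of old to young of 0.671 (0.471 to 0.955). Without it there were 44 and 52, a ratio of 1.18 (0.793 to 1.76). Chromosome 13, where all members together had 25 young and 9 old H3K14ac peaks, was not left out of these ratios. The difference among members with the core lay in the middle of the genes, where 32 young and 7 old H3K14ac pairs were found. Their start sites had 31 and 36. The 187 other genes of the genome with the KRAB core had 83.3 Kap1 young and 62.6 Kap1 old peaks per Mb. Of these genes 46.0% had a Kap1 young and 35.3% a Kap1 old peak, beside 49.1% and 27.4% of the members with the core. Most members of the clusters described below carry the core, and the parts of domain and cluster were not tested.

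With age, H3K14ac peaks at the members numbered 118 in young and 103 in old livers, a ratio of 0.873 (0.671 to 1.14). The other protein-coding genes of the same 7 chromosomes had 4231 young and 5220 old peaks, a ratio of 1.23 (1.18 to 1.28), which lies above the members' interval. The ratio of the whole H3K14ac lists was 1.06, which lies inside it. Chromosome 13 bore on the members' ratio, with 25 young and 9 old peaks. Without it the ratio at members was 1.01 (0.76 to 1.34), from 93 young and 94 old peaks. The other genes without chromosome 13 had a ratio of 1.25 (1.2 to 1.31), which lies inside that interval. Setdb1 peaks numbered 105 and 36, a ratio of 0.343 (0.235 to 0.5), beside 0.259 for the other genes of these chromosomes and 0.274 for the whole lists. For Kap1 the counts were 153 and 66, a ratio of 0.431 (0.324 to 0.575), beside 0.448 and 0.453. The Setdb1 and Kap1 ratios at members therefore lay close to those of the whole lists. Kap1 peaks were more numerous in young livers at 49 members (30.4%, all genes 28.6%) and in old livers at 11 (6.83%, all genes 8.31%). Setdb1 peaks were more numerous in young livers at 53 members (32.9%, all genes 38.8%) and in old livers at 13 (8.07%, all genes 6.43%).

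Peaks of the same mark at both ages mostly did not lie on the same base pairs, for H3K14ac as for Setdb1 and Kap1. At 31 members an H3K14ac young peak shared at least 1 bp with an old one (19.3%, 13.9 to 26%; all genes 13.2%), and this held for 37 of 118 young peaks (31.4%) and 37 of 103 old peaks (35.9%), where 28.6% and 24.1% of the peaks at all genes did so. For Kap1 this was seen at 6 members (3.73%, all genes 3.1%), namely Zfp369, Zfp40, Zfp52, Zfp808, Zfp973 and Zfp994, with 7 of 153 young (4.58%) and 7 of 66 old peaks (10.6%), where 7.04% and 16.0% of the peaks at all genes did so. No member had Setdb1 peaks that met across ages (0 of 161, interval up to 2.33%; all genes 0.889%). At Zfp52 146 of 150 bp were shared, and at Zfp973 all 485 bp of 1 young peak lay in an old one, in a sequence with 8 further copies in the genome. The Zfp52 pair has no second copy, and its sequence from the middle of the gene is shown for both ages, with no part in capitals.
Zfp52, Kap1 young, chr17:21556159-21556308, plus strand: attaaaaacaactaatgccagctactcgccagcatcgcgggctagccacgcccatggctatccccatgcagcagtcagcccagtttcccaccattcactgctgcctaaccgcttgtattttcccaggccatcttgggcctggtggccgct
Zfp52, Kap1 old, chr17:21556155-21556304, plus strand: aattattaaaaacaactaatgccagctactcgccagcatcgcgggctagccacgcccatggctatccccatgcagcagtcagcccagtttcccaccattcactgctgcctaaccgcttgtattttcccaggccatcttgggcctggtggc

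Different marks met at few members. H3K14ac and Kap1 shared at least 1 bp at 2 members in young livers (1.24%, all genes 2.27%), Zfp866 and Zfp868, and at Zfp949 in old livers (1 of 161, 0.621%, all genes 1.37%). At Zfp866 the whole 150 bp of the Kap1 peak lay in an H3K14ac peak, and at Zfp949 45 bp were shared within 1 kb of the start site. Setdb1 and Kap1 met at 2 members in young livers (1.24%, all genes 1.72%), Zfp961 and Zfp947, and at 0 in old livers (all genes 0.52%). H3K14ac and Setdb1 met at 4 members in young livers (2.48%, all genes 0.994%), namely Zfp456, Zfp712, Zfp946 and Zfp953, where Zfp456 and Zfp953 share 1 pair of peaks, and at 0 in old livers (all genes 0.356%). At Zfp961 the peaks shared 136 bp in the middle of the gene, and at Zfp947 they shared 6 bp. The Zfp961 pair is printed below because it is the broadest meeting of the methyltransferase and its corepressor at a member, again with no capitals.
Zfp961, Setdb1 young, chr8:71986329-71986528, plus strand: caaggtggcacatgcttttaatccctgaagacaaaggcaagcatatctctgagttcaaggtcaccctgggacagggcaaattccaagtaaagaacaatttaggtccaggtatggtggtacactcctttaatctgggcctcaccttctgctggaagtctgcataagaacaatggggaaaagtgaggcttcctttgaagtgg
Zfp961, Kap1 young, chr8:71986393-71986606, plus strand: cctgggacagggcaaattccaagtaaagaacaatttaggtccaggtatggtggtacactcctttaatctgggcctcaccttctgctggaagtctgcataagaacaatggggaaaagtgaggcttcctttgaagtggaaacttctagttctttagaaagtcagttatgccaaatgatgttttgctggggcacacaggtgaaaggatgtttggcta
Repeat-masked bases made up 70.5% of the Setdb1 peak and 72.4% of the Kap1 peak.

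Kap1 peaks at members held more repeat sequence than H3K14ac peaks there. The median share of masked bases in the RefSeq genome was 24% for Kap1 young and 27.7% for Kap1 old peaks at members, against 16.2% and 18% in the whole lists. More than 50% of the bases were masked in 48 of 153 young (31.4%, whole list 26.4%) and 27 of 66 old peaks (40.9%, whole list 28.8%). For H3K14ac the members' medians were 8.7% and 4.8%, against 13.4% and 10.4%, and for Setdb1 12.5% and 13.8%, against 14% in both lists. Between 0 (H3K14ac old) and 12 (Kap1 young) member peaks per list had a second copy in GRCm38, an alignment over 90% of the length at 95% identity or more. Of the 24 peaks of Zfp808, 13 had one.

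By chromosome, chromosomes 13 and 17 stood out in Kap1. Members of chromosome 17 had 57 young peaks, 43.2 per Mb (32.7 to 56.0), while its other protein-coding genes had 18.2 per Mb. Members of chromosome 13 had 44, 40.8 per Mb (29.7 to 54.8), against 20.7. In old livers the densities were 15.9 (9.86 to 24.3) on chromosome 17 and 22.3 per Mb (14.3 to 33.1) on chromosome 13, against 8.67 and 9.67. On chromosome 13 a few members carried these values, since Zfp369, Zfp808 and Zfp131 held 31 of the young pairs, and Zfp369, Zfp808 and Zfp935 held 17 of the old ones. Without them the other 28 members had 14.6 young (7.77 to 25.0) and 8.89 old peaks per Mb (3.84 to 17.5), with intervals that include the values of the other genes. Without its first 3 members (Zfp943, Zfp52 and Zfp13 in young, Zfp229, Zfp13 and Zfp40 in old livers), with ties taken in symbol order, chromosome 17 had 32.3 young (22.8 to 44.5) and 12.4 old peaks per Mb (6.93 to 20.4). The old interval then includes the 8.67 per Mb of the other genes, and the young one does not include their 18.2. Chromosome 11 was at the other end, with 2 young Kap1 peaks (3.69 per Mb, 0.447 to 13.3) and 0 old ones. The other genes of chromosome 11 were also low in Kap1, with 7.92 young and 2.93 old peaks per Mb, both inside the members' intervals. A Setdb1 young peak was found at 10 of its 17 members (58.8%) and at 32.3% of its other genes. Per Mb its members had 22.1 Setdb1 young peaks (11.4 to 38.6), an interval that includes the 13.7 of its other genes. On chromosome 2, 5 of 25 members had a Setdb1 young peak (20%, other genes there 45%). For H3K14ac the members of chromosome 13 had 23.2 young (15.0 to 34.2) and 8.35 old peaks per Mb (3.82 to 15.9), against 11.1 and 12.3 at its other genes, so that the old interval includes the value of the other genes. Members of chromosome 17 had 29.6 (21.0 to 40.4) and 25.8 (17.9 to 36.0), against 11.6 and 14.6. Chromosome 10, with 5 members, had 7 peaks in all lists together, too few to compare.

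**Figure D4:**
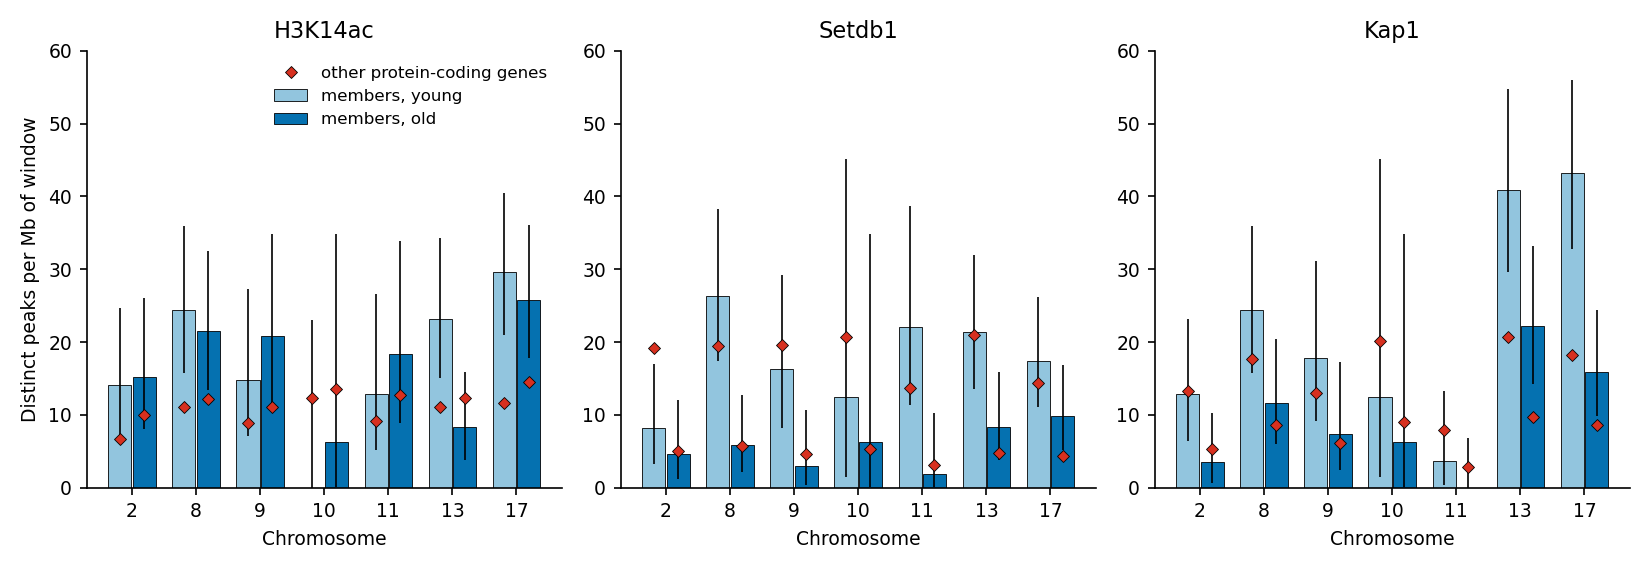
Distinct peaks per Mb of member windows on each chromosome in young and old livers, with exact Poisson intervals, and the same for the other protein-coding genes of that chromosome (red diamonds). Kap1 young stands at 40.8 and 43.2 per Mb on chromosomes 13 and 17 (14.6 and 32.3 without their first 3 members), and H3K14ac on chromosome 13 at 23.2 in young and 8.35 in old livers.

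Chains of at least 4 members that lie within 500 kb of each other, a grouping chosen after the data were seen, gave 11 clusters with 89 members. The longest runs from Zfp160 to Zfp13 on chromosome 17 (chr17:21008903-23599487) with 23 members, 21 of them with the KRAB core. All 23 members had a Kap1 young peak (all genes 34.4%), 55 peaks in all or 67.5 per Mb of window. A Kap1 old peak was found at 11 of them (all genes 19.3%), 17 peaks in all or 20.9 per Mb. The stretch as a whole, spaces between genes included, held 165 Kap1 young and 62 Kap1 old peaks, 63.7 and 23.9 per Mb, where the whole genome held 17.9 and 8.12. Kap1 was therefore dense across the region and not in these genes alone. No Kap1 peak of this cluster was at a start site, and 6 young peaks were on last exons. H3K14ac was present at 17 members in young and 13 in old livers (all genes 32.5% and 40.4%), and the whole stretch held 55 young and 54 old H3K14ac peaks. At start sites it had 10 young and 14 old pairs and in the middle 11 and 1.

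The cluster from Zfp712 to Zfp273 on chromosome 13 (chr13:67038596-67827002) held 19 members, 16 with the KRAB core. Of the 19, 6 had a Kap1 young peak, 6 peaks in all or 11.99 per Mb, and 4 had a Kap1 old peak, where 34.4% and 19.3% of all genes had one. The whole stretch held 16.5 Kap1 young and 12.7 Kap1 old peaks per Mb, where the genome held 17.9 and 8.12. Setdb1 was found at 10 members in young livers, with 15 peaks or 29.97 per Mb, and at 3 in old livers (all genes 43.7% and 17.8%). H3K14ac was found at 11 members in young livers, with 12 peaks, and at 3 in old livers, with 3 peaks (all genes 32.5% and 40.4%). The whole stretch held 16 young and 8 old H3K14ac peaks, 20.3 and 10.1 per Mb, where the genome held 7.1 and 7.51. Start sites accounted for 6 young and 1 old pair. One young H3K14ac peak and 1 young Setdb1 peak of this cluster had a second copy in the genome.

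Smaller clusters varied as widely. The 4 members from Zfp709 to Zfp961 on chromosome 8 (chr8:71882019-71993792) had 10 Kap1 young and 11 Kap1 old peaks, 88.9 and 97.8 per Mb. All 4 members had a Kap1 peak at each age (all genes 34.4% and 19.3%), and the Kap1 peaks of Zfp882 and Zfp617 are the same ones. The 6 members from Zfp930 to Zfp866 on the same chromosome had 12 Kap1 young peaks, 79.3 per Mb, and 0 old ones in their windows. Their whole stretch, spaces between the genes included, held 44 young and 11 old Kap1 peaks, 75.6 and 18.9 per Mb. On chromosome 9 the 5 members from Zfp560 to Zfp846 had 0 Kap1 peaks at either age and 3 young and 4 old H3K14ac peaks. On chromosome 2 the 4 members from Zfp968 to Zfp966 (chr2:175372436-175931100) had no peak in any list. The authors kept uniquely aligned reads, a step in which near-identical genes lose reads. The part of this in the empty windows was not tested. Members outside the clusters, 72 in all, had 19.6 Kap1 young and 9.31 Kap1 old peaks per Mb. Of these 59 young and 28 old peaks, Zfp369 held 14 and 7, and Zfp808 held 9 and 7.

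Single members are described in order of their peak numbers. Zfp369 on chromosome 13 (25.4 kb, 5 fingers, no KRAB core) had the most, with 14 Kap1 young and 7 Kap1 old peaks, 5 H3K14ac young and 1 H3K14ac old peak, and no Setdb1 peak at either age. Its Kap1 peaks were up to 937 bp wide in young livers, the widest at any member, and up to 406 bp in old livers, whereas most Kap1 peaks were 150 bp wide. The midpoint of the 937 bp peak lay 7132 bp after the start site. Of its young H3K14ac peaks 2 lay at the start site, 2 in the middle and 1 on the finger array.

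Zfp808 on chromosome 13 (106 kb, 22 fingers, KRAB core) had 9 Kap1 young and 7 Kap1 old peaks, 2 Setdb1 young and 4 Setdb1 old, 2 H3K14ac young and 0 H3K14ac old. It is 1 of 13 members with more Setdb1 peaks in old than in young livers. Its annotated gene body runs on beyond the array, and 7 of the 9 young and all 7 old Kap1 peaks lay past the array. Zfp943 on chromosome 17 (109 kb, 11 fingers, KRAB core) had 12 Kap1 young peaks and 1 old, 4 H3K14ac young and 0 old, and 1 young and 2 old Setdb1 peaks. Of its 12 young Kap1 peaks, 10 lay past the array and 1 on it. Its start site peak of H3K14ac in young livers is shared with Zfp942, which starts close by on the other strand and had 1 H3K14ac young, 2 Setdb1 old and 2 Kap1 young peaks.

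Zfp961 on chromosome 8 (42.8 kb, 11 fingers, KRAB core) had 6 Kap1 young and 7 Kap1 old peaks, 3 Setdb1 young and 0 old, and 2 young and 1 old H3K14ac peaks. It was 1 of 11 members with more Kap1 peaks in old livers. Zfp949 on chromosome 9 (23 kb, 11 fingers, KRAB core) had 3 young and 4 old H3K14ac peaks, 3 young and 0 old Setdb1 peaks and 5 young and 4 old Kap1 peaks. Of its 4 old H3K14ac peaks, 3 lay at the start site, and its 9 Kap1 peaks lay upstream of the array, 1 of them within 1 kb of the start. Zfp617 on chromosome 8 (26 kb, 14 fingers, KRAB core), which overlaps Zfp882, had 4 young and 2 old H3K14ac peaks, 1 young Setdb1 peak and 3 young and 2 old Kap1 peaks.

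**Figure D5:**
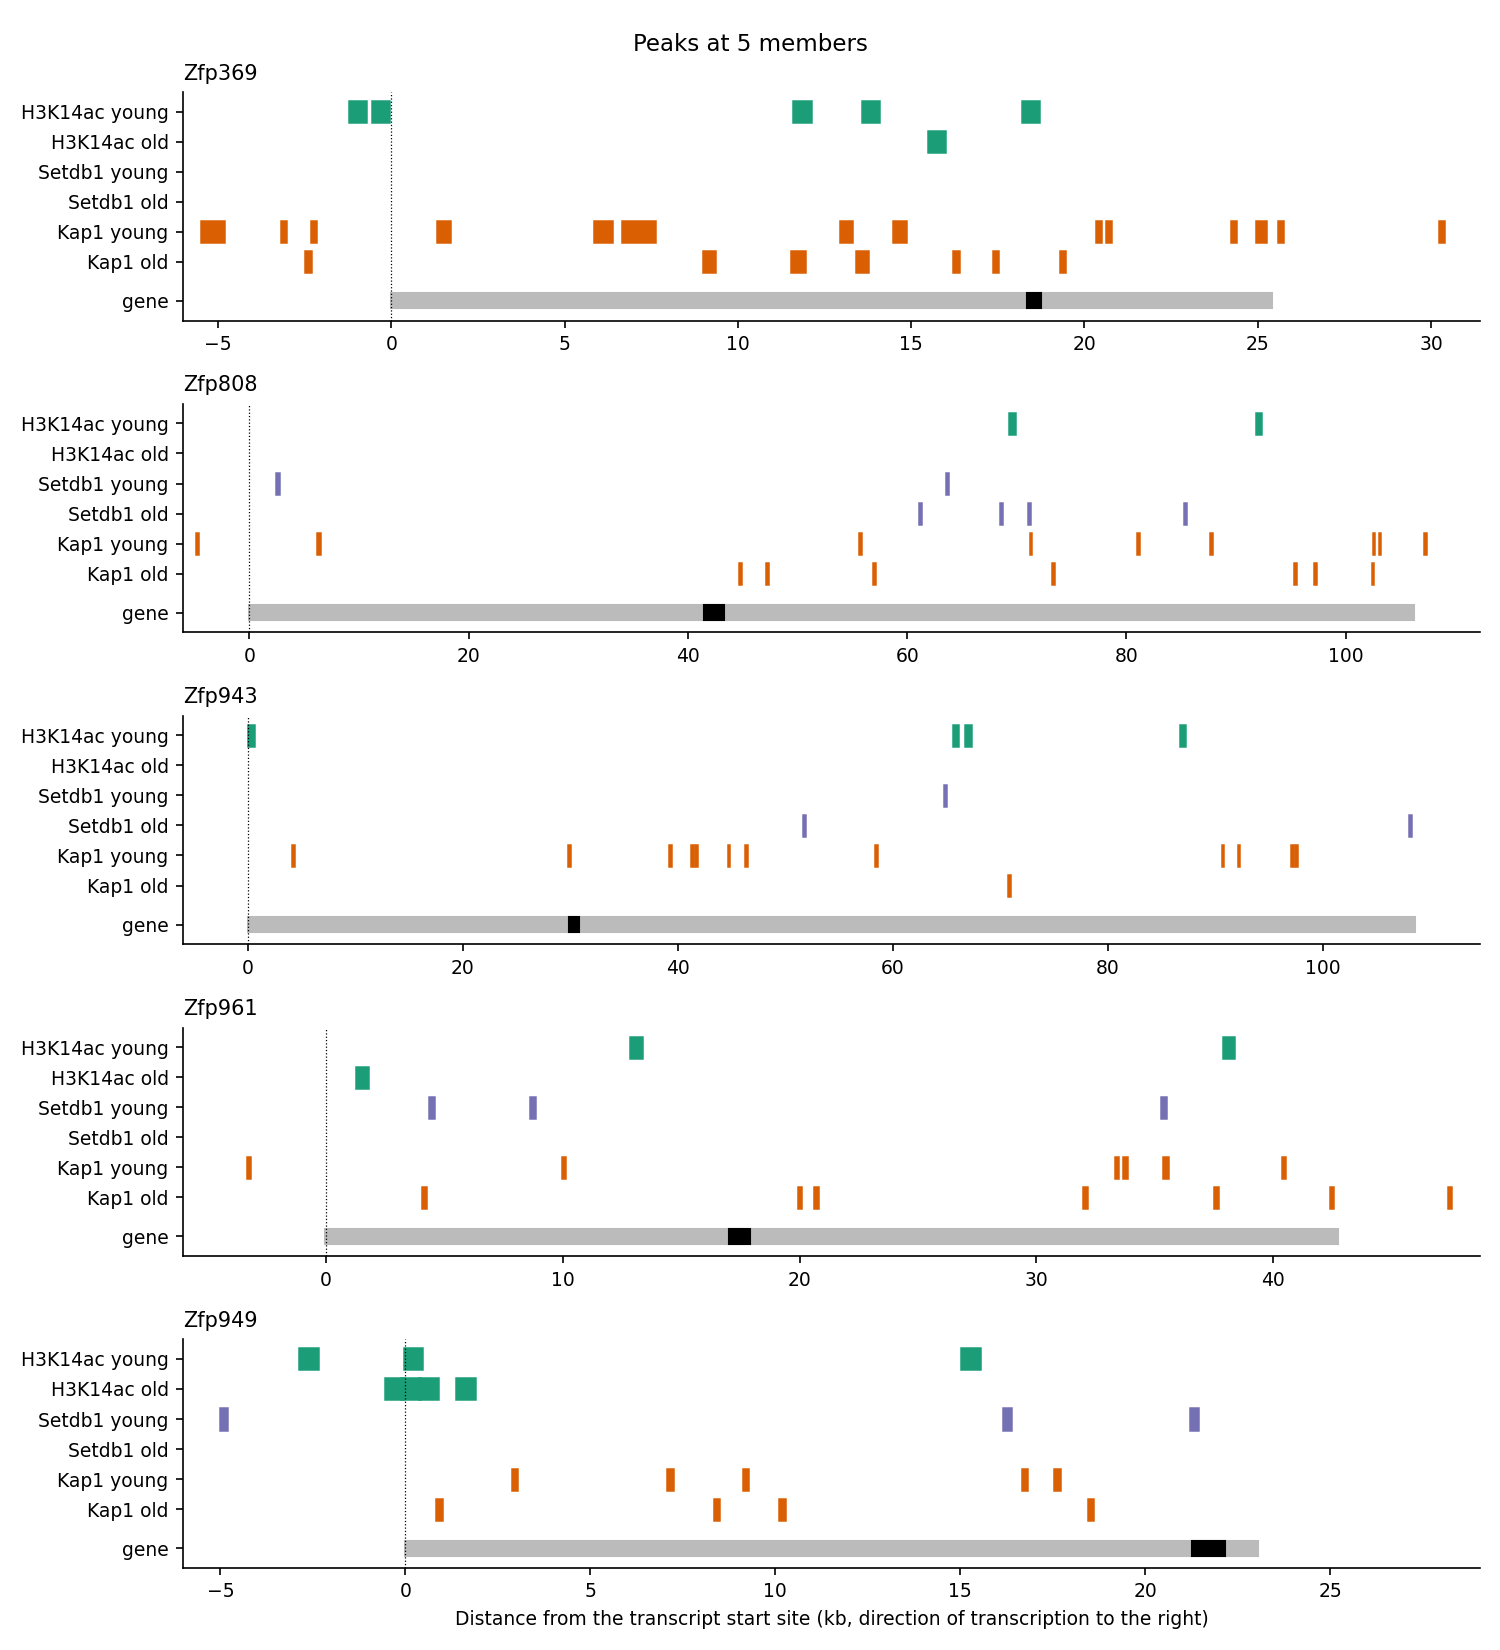
Peaks of the 6 lists at 5 members by distance from the transcript start site (kb, transcription to the right), with the gene body in grey, the finger array in black and peaks outlined, so that narrow peaks look wider than they are in long genes. Kap1 peaks (orange) fill the body of Zfp369 and lie mostly past the array in Zfp808, Zfp943 and Zfp961, and H3K14ac (green) sits at the start of Zfp949.

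Among the named members without a KRAB core, the 3 longest differed in Setdb1. Zfp423 on chromosome 8 (298 kb) had 11 Setdb1 young and 0 Setdb1 old peaks, 1 H3K14ac old peak at the start site and no Kap1 peak. Zfp827 on chromosome 8 (165 kb, 9 fingers) had 6 young and 2 old Setdb1 peaks, 1 Kap1 peak at each age and 2 H3K14ac old peaks. Zfp831 on chromosome 2 (67.3 kb) had 2 peaks in each of H3K14ac young, H3K14ac old, Setdb1 old and Kap1 young. Long windows offer more room for peaks, and these counts are not per length.

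The remaining members named by the same rule had 3 to 9 peaks over the 6 lists. Zfp213 on chromosome 17 (7.47 kb, 5 fingers, no KRAB core) had 4 H3K14ac peaks at each age and 1 Kap1 young peak. Zfp964 on chromosome 8 had 1 young and 3 old H3K14ac peaks, 2 Setdb1 young and 1 Kap1 young peak. Zfp995 on chromosome 17 had 2 Setdb1 old and 2 Kap1 young peaks, and Zfp947 on the same chromosome had 2 Setdb1 young and 3 Kap1 young peaks. Zfp39 on chromosome 11 had 1 H3K14ac peak at each age at the start site, 2 young and 1 old Setdb1 peak and no Kap1 peak. On chromosome 10 the first was Zfp938, with 2 young and 1 old Kap1 peak.

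Members with known roles were also looked up, after their values were seen. Zfp809, which silences murine leukaemia virus through the primer binding site in embryonic cells, had 1 H3K14ac peak at each age and 1 Kap1 young peak. Zfp57, which keeps imprints, had 1 H3K14ac young and 1 Setdb1 old peak. Zfp335 on chromosome 2, a regulator of neural progenitors, had 3 young and 2 old H3K14ac peaks and nothing else, and the ribosome-associated ubiquitin ligase Zfp598 had 1 young and 2 old H3K14ac peaks. Zfp973 on chromosome 2 had 2 Kap1 peaks at each age, 423 to 594 bp wide, which met across ages and each had 8 further copies in the genome.

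The genes of the repression pathway that these proteins recruit were counted from a list of 26, all found in the annotation. H3K14ac was present at 16 of them in young (61.5%) and 18 in old livers (69.2%), while 32.5% and 40.4% of all genes had it. The listed genes are 13.3 to 142 kb long, beside a median of 17.4 kb for all genes. Long windows offer more room for peaks, and the shares of this list are not per length. Setdb1 was present at 12 (46.2%, all genes 43.7%) and 4 (15.4%, all genes 17.8%), and Kap1 at 9 (34.6%, all genes 34.4%) and 5 (19.2%, all genes 19.3%), close to the background. Trim28, which encodes Kap1, had 6 H3K14ac peaks at each age and no peak of Setdb1 or Kap1, and Setdb1 had 1 young H3K14ac and 1 young Setdb1 peak. Hdac3, the deacetylase named in the study's title, had 5 Kap1 young peaks and 0 old ones, with 2 young and 1 old H3K14ac peak. The DNA methyltransferase Dnmt3a had 5 young and 6 old H3K14ac peaks and 4 young and 1 old Kap1 peak.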

How the data were processed

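The deposited files were 6 peak lists, each the pooled peaks of 1 mark at 1 age, and hold coordinates only. Per the labels and the study's methods, reads were aligned to mm10 with BWA, duplicates were removed, uniquely aligned reads were kept, livers of an age were merged, and peaks were called with PeakSeq against input at a threshold that differed between marks. H3K14ac was sequenced on another instrument than Setdb1 and Kap1, so that marks cannot be compared free of these differences. The peak coordinates were used as deposited by the authors, without a score. Sequential ChIP libraries of 4 samples were not used here.

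Peaks were intersected with gene windows by at least 1 bp, and with segments by midpoint, in GENCODE M21 on GRCm38. Code was compared with bedtools 2.31.1 (0 of 21938 genes differed in each list) and tested on simulated data. A finger was read as Cys, 2 to 4 residues, Cys, 12 residues, His, 3 to 5 residues, His, in the protein of the longest coding transcript. Second copies were sought with minimap2 2.31. Python 3.11.15, numpy 2.4.6, scipy 1.17.1, pysam 0.24.0, Biopython 1.88 and matplotlib 3.10.9 were used. Promoters came from RefSeq.

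The members and gene lists were chosen with earlier results of these data known. The clusters, the promoter motifs and the alternatives without second copies, without the first 3 members of chromosomes 13 and 17, and without the gene with the most peaks in each Zfp group, were chosen after seeing the data. Genes were named by rule: the 3 members with the most peaks in each list, the member with the most peaks on each chromosome (ties in both, such as Zfp39 and Zfp652 with 5 peaks each on chromosome 11, went to the member with more peaks per kb of window), members with a peak of 1000 bp or more (0 found), members where Setdb1 and Kap1 of an age met, and members with H3K14ac met across ages and with Kap1. Others are said to have been chosen after their values were seen. Alternatives varied the flank, the overlap rule, the transcript, the symbol rule, merging of near peaks, and the chromosomes included.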

Additional observations from a re-analysis of the deposited data

How the results depend on the processing

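Of 77 recalculations with another setting, 72 stayed within the counting interval of the main value or within 1.5 times a main count, and 5 did not, all of them for marks that meet. With gaps of up to 500 bp allowed, H3K14ac met Kap1 at 4 members in young and 2 in old livers (2 and 1 in the report), and Setdb1 met Kap1 at 6 in young livers (2 in the report). With 50% of the narrower peak required, H3K14ac met Kap1 at 0 members in old livers and Setdb1 met Kap1 at 1 in young livers. The changes follow from the overlap rule itself. Setdb1 met Kap1 at 0 members in old livers under each rule. Leaving out chromosome 13 gave an old to young H3K14ac ratio of 1.01 in place of 0.873, whose interval then includes the ratio of the other genes. With peaks that have a second copy left out, chosen after seeing the data, the 9 results tried stayed within these limits. Leaving out the 3 members with the most peaks, also chosen after seeing the data, gave Kap1 densities on chromosome 13 of 14.6 per Mb in young and 8.89 in old livers in place of 40.8 and 22.3, and on chromosome 17 of 32.3 in place of 43.2 in young livers. Leaving out the gene with the most peaks gave Kap1 densities for chromosome 7 Zfp genes of 34.0 young and 14.7 old in place of 45.3 and 22.7, and for Zfp genes of the remaining chromosomes of 38.7 and 28.2 in place of 45.2 and 32.5. No paired analysis was possible because each mark has 1 pooled list per age and no test between livers was made. The depth of the pooled libraries is unknown, so an empty window cannot be read as absence of a mark.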
